A study of Mus musculus with 3 samples.

Results

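The comparison described here is between mouse embryonic fibroblasts (MEFs) transfected with siNcor1 and MEFs transfected with siPou5f1, both taken at day 6 of reprogramming. There were 3 libraries of each, so 6 of the 129 libraries in the count table, and the 3 libraries of the non-targeting siRNA (nt) are given beside them for reference. The pair was selected on these libraries, since the study singled out Ncor1 and Pou5f1 (Oct4) for the likeness of their profiles, so the likeness itself is a description here and was not tested. What was tested is which genes differed directly between the siRNAs.

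All 9 libraries came from wild-type BL6 MEFs transduced with the tet-STEMCCA lentivirus, which carries Oct4, Sox2, Klf4 and c-Myc under a doxycycline-dependent promoter, and with rtTA. The siRNAs against each target were pooled and used at 40 nM, and 24 hours after transfection the cells went into medium with 2 µg/mL doxycycline, 3 µM chiron (a GSK3 inhibitor), 0.25 µM Alk5i (a TGF-β inhibitor), 50 µg/mL ascorbic acid and LIF. The siRNA was thus the one labelled difference between siNcor1, siPou5f1 and nt. RNA was measured in bulk by CEL-Seq2, in which 3′ ends are counted with unique molecular identifiers (UMIs), and each replicate number is 1 sequenced pool. In bulk RNA, fewer cells of a type and less RNA per cell cannot be told apart. Replicates are not known to be separate cell preparations, so p-values measure only a spread between libraries. In the main test that spread was estimated over all 127 libraries fitted, not over these 9 alone.

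NCOR1 is a nuclear corepressor that bridges unliganded nuclear receptors and other transcription factors to a complex with HDAC3, which removes acetyl groups from histones. OCT4, the product of Pou5f1, is a POU-domain transcription factor of pluripotent cells and a component of the reprogramming cassette. During early reprogramming, fibroblast genes such as collagens and Vim are known to go down as epithelial and later pluripotency genes come up.

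An siRNA guides cleavage of a transcript through its antisense strand, and bases 2 to 8 of that strand form the seed. The antisense strands read for both targets, 2 for each gene, are shown because they are part of the treatments compared, written 5′ to 3′ with the seed in capitals.
siRNA 69243 (Ncor1): aUUUUCUGcuugauuugcc
siRNA 151545 (Ncor1): cAACUUACgaaaaauuucc
siRNA 71264 (Pou5f1): uUUCAUGUccugggacucc
siRNA 71357 (Pou5f1): gGCAAACUguucuagcucc
Per the methods of the study, each pool held a further siRNA for its gene, which was not analysed here. No seed was shared among the 4 strands shown. Each matched transcripts of 1 gene exactly in GENCODE vM21 (GRCm38), always within the coding sequence. siRNA 69243 matched Ncor1 across exons 37 and 38 of 45 (chr11:62330796-62330812 and chr11:62330138-62330139, minus strand), and siRNA 151545 matched exon 41 (chr11:62325518-62325536). For Pou5f1, siRNA 71264 spanned exons 1 and 2 of 5 (chr17:35506480-35506483 and chr17:35509103-35509117, plus strand), and siRNA 71357 lay in exon 2 (chr17:35509129-35509147).

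Counts of the targets were too low to check the knockdowns. Ncor1 had 4, 3 and 5 counts in the siNcor1 libraries, 3, 4 and 9 in siPou5f1 and 2, 10 and 10 in nt. Per total count, the ratio of siNcor1 to siPou5f1 was 0.621 with an exact Poisson 95% interval of 0.268 to 1.40, which covers counting error only, and siNcor1 to nt was 0.625 (0.282 to 1.32). A lower Ncor1 level was therefore not detectable at this depth. Pou5f1 had 0 counts in all 6 libraries of the pair, which allows up to 15.25 CPM (counts scaled to a common library total by TMM, as throughout) over the siNcor1 libraries and 17.1 over siPou5f1, and it had 1, 0 and 3 counts in nt. 3′ end counting may not see the cassette transcript, so the Pou5f1 counts are not a measure of the transgene. Of the other cassette factors, Sox2 had 0 counts in the pair and 3 in nt, Klf4 had 2 in siNcor1 and 1 in siPou5f1, and Myc had 4 and 1.

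Total counts were 67275, 58123 and 134846 in siNcor1, 46611, 50972 and 117962 in siPou5f1, and 75100, 80136 and 143156 in nt. One library stood apart before any test. The mitochondrial rRNAs mt-Rnr1 and mt-Rnr2 made up 3.92% of siPou5f1 replicate 1 (exact binomial 95% interval 3.75% to 4.10%), against 12.2% and 12.5% in the other siPou5f1 libraries and 12.2% to 13.9% in nt. Only 1 of the 127 libraries in both tables had a lower share. At the other end, siNcor1 replicate 1 had 18.5%, the highest share of the 127, and its other replicates had 15.1% and 13.3%. Cytoplasmic ribosomal proteins took 7.25% of siPou5f1 replicate 1, the highest of the 127 libraries, but 7.17% of siPou5f1 replicate 3 and 6.65% of siNcor1 replicate 3 as well. The called genes, the 24 genes of lowest p in the plot and the medians of gene lists are therefore also given without siPou5f1 replicate 1.

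**Figure D1:**
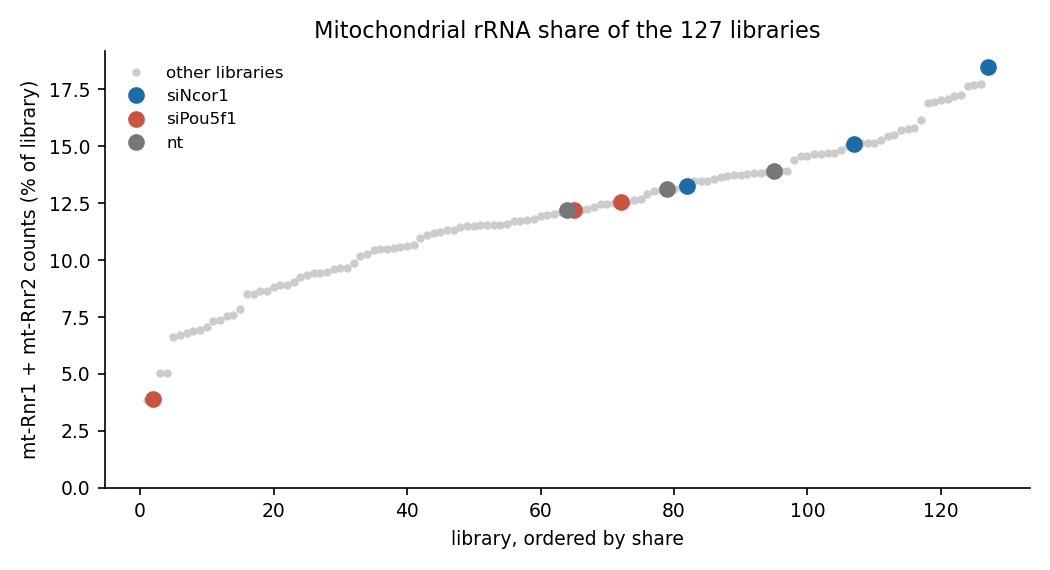
Counts of mt-Rnr1 and mt-Rnr2 as a percentage of all counts of a library (y axis) for the 127 libraries in order of that share (x axis), with siNcor1, siPou5f1 and nt in color. The lowest colored point is siPou5f1 replicate 1 at 3.92%, and the highest is siNcor1 replicate 1 at 18.5%.

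The cells carried fibroblast markers in all 9 libraries. The 12 fibroblast identity markers summed to 2092 to 3221 CPM in siNcor1, 1341 to 1585 in siPou5f1 and 2394 to 3364 in nt. Many markers of other cell types had no counts. Over the 6 libraries of the pair, the endothelial genes Pecam1, Cdh5 and Kdr, the leukocyte genes Ptprc, Csf1r and Adgre1, the muscle regulators Myod1 and Myog, the glial gene Sox10 and the adipocyte genes Adipoq and Plin1 each had 0 counts. Summed levels were at most 22.5 CPM for endothelial, 47.3 for macrophage and blood and 50.0 for muscle markers in any library of the pair. Neural and glial markers summed to 90.1 to 167 CPM in siNcor1 and 166 to 248 in siPou5f1, mostly Stmn2 and Tubb3, with 40 and 18 counts in the pair, beside 6 of Nes, and adipocyte markers to 20.4 to 80.1 and 67.5 to 101 CPM, mostly Lpl, with 25 counts. Their part in the results was not tested.

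Few genes differed between siNcor1 and siPou5f1. Of 3013 genes tested, 10 passed an adjusted p of 0.05 (0.332% of genes), and all 10 were higher in siNcor1 (0.332%). In this fit none were lower, although 126 genes were lower and 127 higher at an unadjusted p under 0.05. DESeq2 gave an adjusted p to only 385 of the 3013 genes and called 22 of them higher and 11 lower. On the 1411 genes with a mean of at least 100 CPM, edgeR called 13 higher, among them all 10, and 7 lower. With the siNcor1, siPou5f1 and nt libraries alone, edgeR called 0 of 1252 genes (90 at an unadjusted p under 0.05). The called genes were the mitochondrial rRNAs mt-Rnr1 and mt-Rnr2, mt-Nd5, the pseudogenes Gm28439, Gm14776, Gm17060 and Gm5611, RP24-389J11.1, the ferritin light chain gene Ftl1 and the chromatin protein gene Hmga2. Without siPou5f1 replicate 1, 3 of 2992 genes were called (0.100%), and 2 of the 10 were among them, Gm28439 and Ftl1. The third was Luc7l3, a splicing-related gene that was lower in siNcor1. It is named here after its values were seen. All 10 genes stayed higher in siNcor1 in the fit without that library. With no replicate block, 2 genes were called, Gm28439 and Gm14776. In 8 of the 10, siPou5f1 replicate 1 was the lowest of the 6 libraries.

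**Figure D2:**
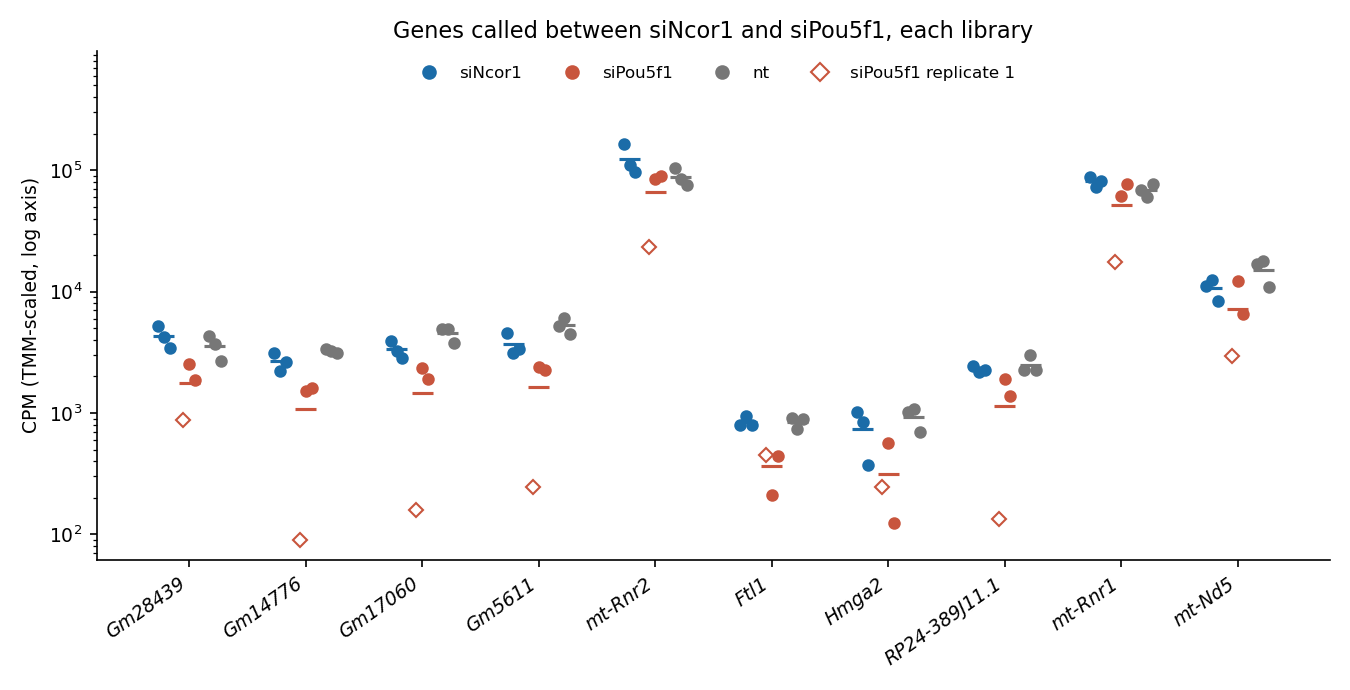
CPM on a log axis (y) of the 10 called genes (x) in each library of siNcor1, siPou5f1 and nt, with bars at the mean of 3 libraries and siPou5f1 replicate 1 as an open diamond. Gm14776 was at 90.1 CPM in that library and at 1514 and 1622 in the other siPou5f1 libraries, whereas the siPou5f1 libraries of Ftl1 all lay between 213 and 450.2 CPM.

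Ftl1 and Hmga2 were the called genes of the nuclear genome that code for known proteins. Ftl1 encodes the light chain of ferritin, which stores iron. It was at 795, 942 and 801 CPM in siNcor1, 450.2, 213 and 439 in siPou5f1 and 916, 733 and 899 in nt. The siNcor1 and siPou5f1 libraries did not overlap, and siNcor1 lay within the range of nt or just above it. The log2 fold change of siNcor1 over siPou5f1 was 1.16 ± 0.24 (SE, adjusted p 0.00141), and 1.31 ± 0.27 (adjusted p 0.00247) without siPou5f1 replicate 1. Without replicate 2, which holds its lowest siPou5f1 library, it was 0.84 and the call was lost (adjusted p 0.256). Against nt, siPou5f1 was lower (-1.18, adjusted p 9.1e-05) and siNcor1 was at -0.02 (adjusted p 0.978). The last 300 bases of the Ftl1 transcript share 66.8% of their 30-base words with Ftl1-ps1, and 20 other genes share at least 1, so its counts may hold reads of copies.

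Hmga2, an architectural chromatin protein of embryonic and proliferating cells, was at 1019, 837 and 370.3 CPM in siNcor1, 248, 568 and 123.9 in siPou5f1 and 1016, 1077 and 703 in nt. The highest siPou5f1 library lay above the lowest siNcor1 library, so the groups overlapped. Within each replicate number, however, siNcor1 was the higher. The log2 fold change was 1.301 ± 0.29 (adjusted p 0.00492), and it was 1.20 without siPou5f1 replicate 1, where the call was lost (adjusted p 0.131). Hmga2 was lower in siPou5f1 than in nt (-1.71, adjusted p 2.25e-07), and siNcor1 was at -0.41 against nt (adjusted p 0.367).

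Of the transcripts encoded by the mitochondrial genome, mt-Rnr2, the large ribosomal RNA, was at 165900, 110200 and 96750 CPM in siNcor1 and at 23480, 85260 and 89960 in siPou5f1. The small ribosomal RNA mt-Rnr1 was at 87280, 73420 and 82230 CPM in siNcor1 and at 17670, 61700 and 76530 in siPou5f1. In both genes siPou5f1 replicate 1 was far below every other library of the pair. The log2 fold changes were 0.80 ± 0.16 (adjusted p 0.000508) for mt-Rnr2 and 0.64 ± 0.15 (adjusted p 0.0108) for mt-Rnr1, and without that library they were 0.38 (adjusted p 0.479) and 0.25 (adjusted p 0.704). Neither siRNA differed from nt in these rRNAs past the threshold, with adjusted p from 0.0638 to 0.458.

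The complex I subunit mt-Nd5 was at 11230, 12430 and 8437 CPM in siNcor1, 2972, 12130 and 6557 in siPou5f1 and 16800, 18010 and 10870 in nt. The pair overlapped, and both siRNAs were lower than nt, by -0.49 (adjusted p 0.0179) for siNcor1 and -1.06 (adjusted p 6.49e-10) for siPou5f1. The direct log2 fold change of 0.57 ± 0.14 (adjusted p 0.0301) went to 0.21 without siPou5f1 replicate 1 (adjusted p 0.756). All 13 mitochondrially encoded mRNAs were tested, and all 13 fitted fold changes were above 0, with a median of 0.28 on the log2 scale against -0.002 over all genes tested. mt-Nd5 was the 1 called in this fit, where 0.332% of all genes tested were called. DESeq2, which gave 11 of the 13 an adjusted p, also called mt-Nd4 and mt-Nd4l. Over all genes it called 33 of the 385 with an adjusted p. Of those that did not pass, mt-Atp8 of the ATP synthase was at 1.63 (adjusted p 0.0906) and mt-Nd4l of complex I at 0.93 (adjusted p 0.163). Without siPou5f1 replicate 1 the fitted fold changes were above 0 for 11 of 13, with a median of 0.21 and 0 called.

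Gm28439 had the lowest p of the comparison. It lies at chr1:24611535-24612410 (minus strand) as an unprocessed pseudogene, and all 30-base words in the last 300 bases of its transcript are also in mt-Nd4, so its counts and those of mt-Nd4 cannot be told apart by sequence there. It was at 5239, 4207 and 3463 CPM in siNcor1, 878, 2531 and 1882 in siPou5f1 and 4280, 3724 and 2671 in nt. The pair did not overlap, with or without siPou5f1 replicate 1. The log2 fold change was 1.24 ± 0.16 (adjusted p 1.89e-09), and 0.94 (adjusted p 7.84e-05) without that library. Its neighbor Gm10222 (chr1:24612407-24612700), whose 30-base words were all in mt-Nd4l, was at 0.98 and did not pass (adjusted p 0.0906).

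The other 4 called genes were Gm14776, Gm17060, Gm5611 and RP24-389J11.1. The first 3 are annotated as processed pseudogenes, at chrX:87771339-87772352, chr6:49424061-49424884 and chr9:17030045-17030896, and RP24-389J11.1 had no entry of that name in GENCODE vM21. Gm14776 was at 3119, 2240 and 2642 CPM in siNcor1 and at 90.1, 1514 and 1622 in siPou5f1. Gm17060 was at 3955, 3265 and 2822 CPM in siNcor1 and at 158, 2341 and 1893 in siPou5f1. Gm5611 was at 4607, 3119 and 3383 CPM in siNcor1 and at 248, 2412 and 2265 in siPou5f1. In all of these siPou5f1 replicate 1 was far below the rest and every siNcor1 library was above every siPou5f1 library. RP24-389J11.1 had the same pattern, with 2446, 2177 and 2262 CPM in siNcor1 and 135, 1916 and 1375 in siPou5f1. Log2 fold changes were 1.20, 1.09, 1.06 and 0.95 in this order (adjusted p 9.91e-05, 0.000189, 0.000267 and 0.00884). Without siPou5f1 replicate 1 they were 0.72, 0.61, 0.59 and 0.47, and none passed (adjusted p 0.146 to 0.606). Over the 127 libraries, siPou5f1 replicate 1 was the lowest for Gm14776, Gm17060, RP24-389J11.1 and mt-Nd5. The part of the low mitochondrial rRNA share of that library in these results was not tested.

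**Figure D3:**
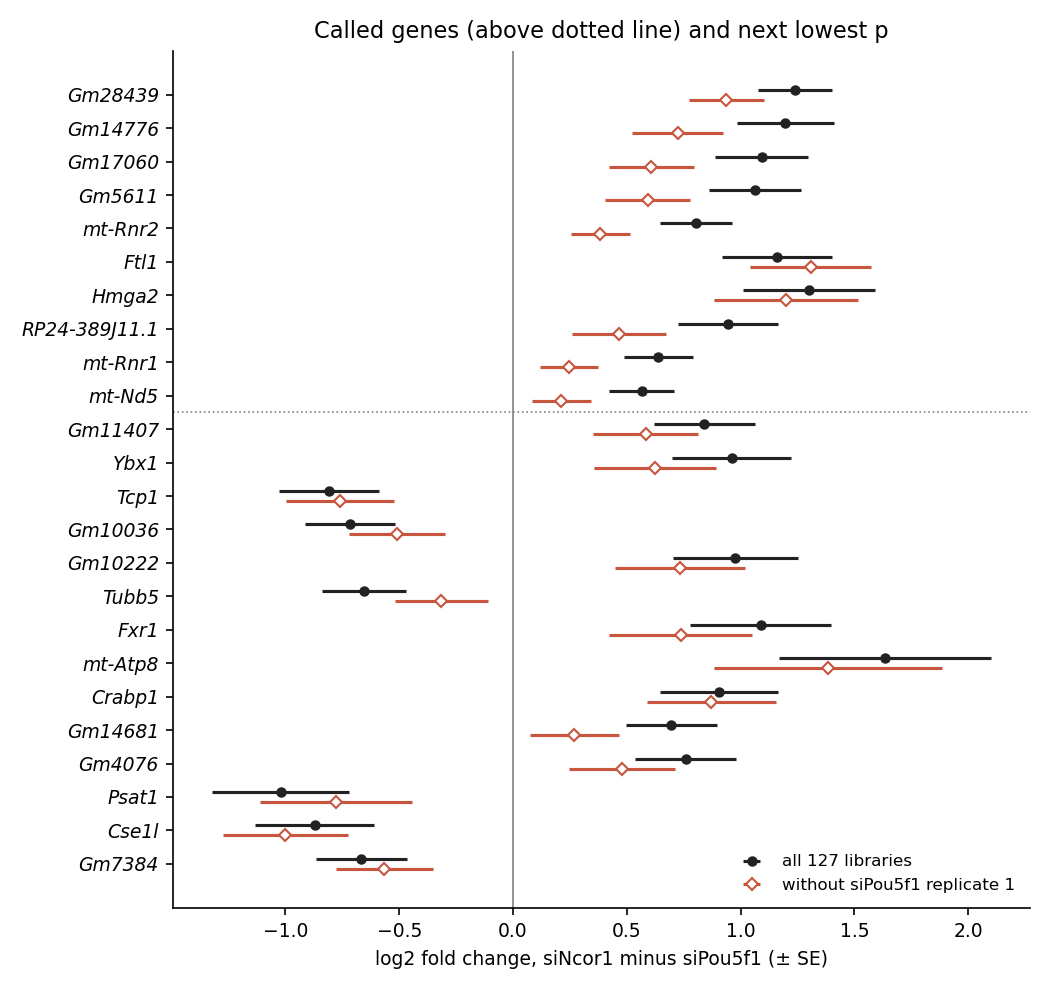
Log2 fold change of siNcor1 minus siPou5f1 with its standard error (x axis) for the 10 called genes, above the dotted line, and the 14 genes of next lowest p, from the fit to 127 libraries (filled) and without siPou5f1 replicate 1 (open). Ftl1 and Hmga2 moved little, from 1.16 to 1.31 and from 1.301 to 1.20, while Gm14776 went from 1.20 to 0.72 and mt-Rnr2 from 0.80 to 0.38.

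The 14 genes of next lowest p did not pass the threshold, with adjusted p from 0.051 to 0.115. On genes with a mean of at least 100 CPM, Gm11407, Ybx1 and Fxr1 were also called higher, and Tcp1, Tubb5, Psat1, Cse1l, Gm10036, Gm7384 and Rps20 lower. Gm11407, a pseudogene, lay just outside it at 0.84 (adjusted p 0.051), and mt-Nd5 just inside. The RNA-binding protein gene Ybx1 was at 979, 649 and 500.4 CPM in siNcor1 and 113, 378 and 462 in siPou5f1, and Fxr1, a relative of the fragile X protein gene, at 428, 377 and 490.4 against 22.5, 284 and 270.4. Both had every siNcor1 library above every siPou5f1 library. So had Crabp1, which binds retinoic acid in the cytoplasm, with 877, 670 and 621 CPM against 360.2, 497 and 316 and a fold change of 0.91 that was 0.87 without siPou5f1 replicate 1.

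On the lower side, Tcp1, a subunit of the cytosolic chaperonin, was at 530.1, 565 and 561 CPM in siNcor1, 923, 970 and 1003 in siPou5f1 and 866, 1196 and 817 in nt. The siNcor1 libraries all lay below those of siPou5f1, but the adjusted p was 0.0688 for a log2 fold change of -0.81 ± 0.22. Tcp1 was lower in siNcor1 than in nt (-0.75, adjusted p 0.0179). All 30-base words of its 3′ end are also in Acat3, read on the opposite strand. The tubulin gene Tubb5 was at -0.65, Psat1 of serine synthesis at -1.02 and the nuclear export factor gene Cse1l at -0.87, with adjusted p of 0.0906, 0.111 and 0.115. The remaining genes of the 24 were the pseudogenes Gm14681 (0.69), Gm4076 (0.76), Gm10036 (-0.72) and Gm7384 (-0.67), whose 3′ ends share 30-base words with Npm1, Gm11407 and, for the last pair, Gm10288. Without siPou5f1 replicate 1 they were at 0.27, 0.48, -0.51 and -0.56. Over all 3013 genes, the siNcor1 and siPou5f1 libraries did not overlap for 259 (8.60%), with siNcor1 above in 130 and below in 129.

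Fibroblast genes were higher in median in siNcor1, though no member passed the test by edgeR. None did by edgeR on genes with a mean of at least 100 CPM or by limma, and DESeq2, which gave an adjusted p to 2 of the members, called neither. Of 12 fibroblast identity markers, 10 were tested and all 10 had fitted fold changes above 0, with a median of 0.89 on the log2 scale against -0.002 over all genes tested. Without siPou5f1 replicate 1 the median was 0.68, again with 10 of 10 above 0, and that of all genes tested was 0.04. The summed level was 3221, 2386 and 2092 CPM in siNcor1, 1396, 1585 and 1341 in siPou5f1 and 3364, 2587 and 2394 in nt. No siPou5f1 library reached a siNcor1 library.

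Dcn, a small proteoglycan of the matrix, was at 347, 209 and 370.3 CPM in siNcor1, 180.1, 118 and 113 in siPou5f1 and 416, 239 and 335 in nt. Its log2 fold change of 1.27 ± 0.38 had an adjusted p of 0.116, and it was 1.57 without siPou5f1 replicate 1. Vim, the intermediate filament of mesenchymal cells, was at 0.78 (adjusted p 0.268) and Lum, another matrix proteoglycan, at 1.06 (adjusted p 0.427). Against nt, siPou5f1 was lower for Dcn (-1.32, adjusted p 0.0118) and Vim (-1.06, adjusted p 0.0022), and siNcor1 was at -0.04 and -0.27 (adjusted p 0.975 and 0.613). Of the 3 collagen genes among these markers, Col1a1 and Col3a1 were at 0.04 and 0.01 within the pair, whereas Col1a2 was at 0.87 (adjusted p 0.494) with every siNcor1 library above every siPou5f1 library, and it was lower in siPou5f1 than in nt (-1.09, adjusted p 0.0466).

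**Figure D4:**
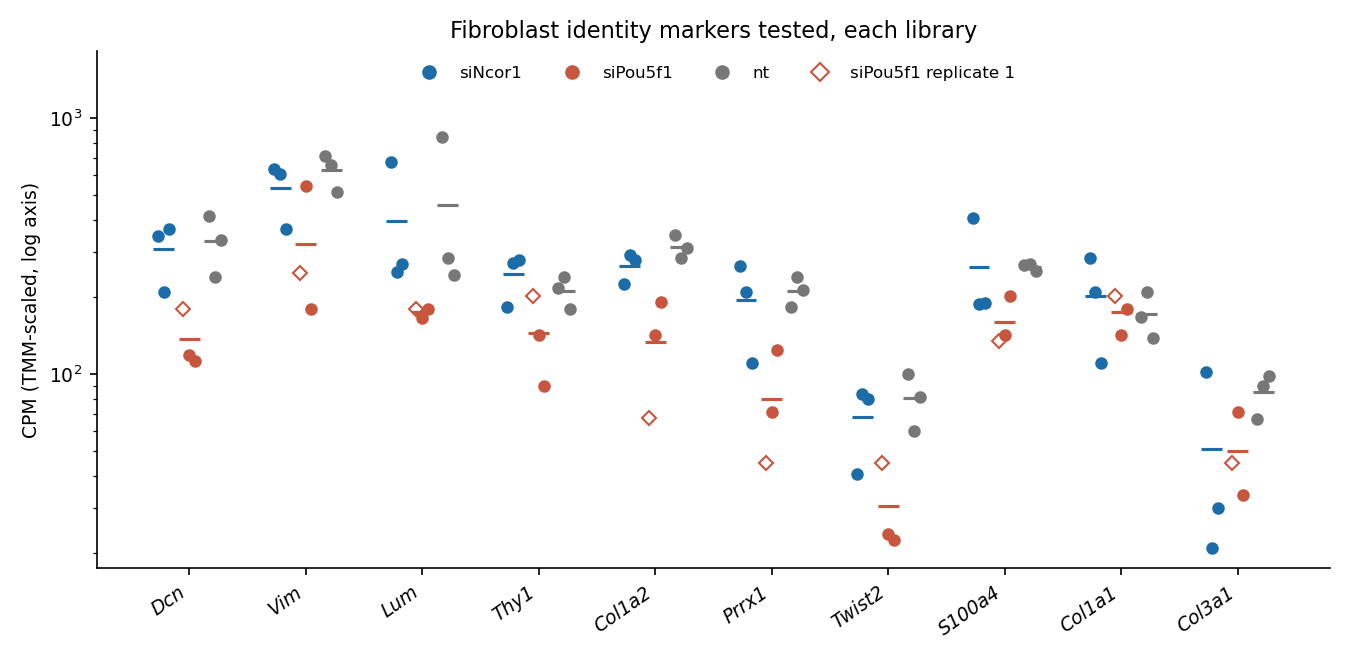
CPM on a log axis (y) of the 10 fibroblast identity markers tested (x) in each library of siNcor1, siPou5f1 and nt, with bars at the mean of 3 libraries and siPou5f1 replicate 1 as an open diamond. For Dcn the siNcor1 libraries were at 209 to 370.3 CPM and the siPou5f1 libraries at 113 to 180.1, while Col1a1 and Col3a1 overlapped.

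Of 49 mesenchymal and matrix genes, 37 were tested, 30 had fitted fold changes above 0, and the median was 0.29, or 0.41 without siPou5f1 replicate 1. None were called by edgeR, with 8 higher and 1 lower at an unadjusted p under 0.05. DESeq2, which gave 8 of the 37 an adjusted p, called none. Postn, another matrix gene, was at 2.99 ± 1.19 (adjusted p 0.427) from 61.2, 105 and 30.03 CPM in siNcor1 and 22.5, 0 and 0 in siPou5f1. Its only count in siPou5f1 was in replicate 1, and the fitted value without that library, 5.08, is set against 0 counts and is no bound. Against nt, 6 of the 37 were called lower in siPou5f1, where 2.19% of all genes tested were, and 1 in siNcor1, where 1.03% were. The cytoskeletal list (22 tested, median 0.19, or 0.33 without siPou5f1 replicate 1) held Cald1, which regulates actomyosin, at 285, 293 and 170.1 CPM in siNcor1 and 67.5, 118 and 113 in siPou5f1 (1.17, adjusted p 0.272), but also Myl9 and Tagln2 at -4.18 and -0.90 (both adjusted p 0.427). Tagln2 was at 698, 237 and 135 CPM in siPou5f1, and its value was -0.09 without siPou5f1 replicate 1. Myl9 had no counts in siNcor1, so its fitted value is no bound. Of the mesenchymal transcription factors (12 tested, median 0.01, or -0.03 without siPou5f1 replicate 1), Id1, Prrx1 and Twist2 were at 1.48, 0.94 and 1.26 (adjusted p above the threshold for each).

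Genes of reprogramming and of NCOR1 itself gave few counts. Of 30 reprogramming and pluripotency genes, 17 had a count in the pair and 3 were tested, L1td1 (1.26), Fut9 (-0.47) and Trim28 (-0.04), none of which passed. Of 29 epithelial genes only Perp was tested, at -0.02. Of the 24 colony-stage genes, 9 were tested with a median of 0.53, or 0.74 without siPou5f1 replicate 1, and the lowest p were those of Nefl (1.62), Sfrp1 (0.87) and Apela (1.08), none called. Of 21 genes of the NCoR complex and histone deacetylases, 9 were tested with a median of -0.02, or -0.25 without that library, and Sap18, Hdac2 and Ncor1 were at 0.91, -0.42 and -0.55, none called. Among 8 tested nuclear receptor responsive genes, whose receptors NCOR1 is known to bind, the median was -0.04, or 0.01 without it. Crabp1 had the lowest p and was called by DESeq2, followed by Sgk1 (-1.41) and Fabp5 (-0.22).

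Amino acid and ATF4 response genes were lower in median in siNcor1. Of 16 tested, 5 were above 0, with a median of -0.43, and -0.22 without siPou5f1 replicate 1. None were called in this fit, with 3 lower at an unadjusted p under 0.05, but Psat1 was called lower by DESeq2 and on genes with a mean of at least 100 CPM. Cth, which makes cysteine, was at 163, 62.8 and 90.1 CPM in siNcor1 and 203, 402 and 248 in siPou5f1, a log2 fold change of -1.41 ± 0.45 (adjusted p 0.192) with no overlap. It was higher in siPou5f1 than in nt (1.46, adjusted p 0.019). Nupr1 was at -1.41 (adjusted p 0.568).

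Mitosis and DNA replication genes had medians below 0, and no member was called. Of 27 mitosis genes, 5 were above 0 and the median was -0.21, or -0.32 without siPou5f1 replicate 1. The lowest p were those of Cenpf (-2.35), Tuba1c (-0.68) and Smc2 (-0.56). DNA replication genes (13 tested) had a median of -0.08, or -0.16 without that library, with Mcm2, Dut and Rfc2 at -1.63, -0.35 and 0.92. Of 11 p53 targets tested, 4 were above 0 and the median was -0.05, or 0.05 without siPou5f1 replicate 1. Of the 3 with the lowest p, all above 0, the cell cycle inhibitor gene Cdkn1a was at 673, 607 and 340.3 CPM in siNcor1 and 225, 355 and 270.4 in siPou5f1 (0.83, adjusted p 0.257, called by DESeq2), and Sesn2 and Mdm2 were at 1.20 and 0.91.

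Of the cytoplasmic ribosomal proteins, 69 were tested and 36 were above 0, with a median of 0.02, or 0.07 without siPou5f1 replicate 1. None were called in this fit, with 2 higher and 9 lower at an unadjusted p under 0.05. Rps20 (-0.45, adjusted p 0.209), Rpl6l (-0.64) and Rpl7 (-0.36) had the lowest p, and Rps20, at 7519 CPM in that library against 3287 and 5453 in the other siPou5f1 libraries, was at -0.15 without it. Rps20 was called lower on genes with a mean of at least 100 CPM and by DESeq2, which also called Rpl7 lower. Both siRNAs were set against the same nt libraries in this group, where 15 of 69 were called higher in siNcor1 (3.42% of all genes tested were) and 17 higher and 1 lower in siPou5f1 (3.58% and 2.19% of all genes). Translation factors (42 tested, median -0.08) were led by Eif3j1, Eif4a1 and Eif1ax at 0.99, -0.59 and -0.70. Nucleolar genes (23 tested, median -0.20) were led by Polr1d, Npm1 and Nop58 at -1.18, 0.28 and -0.35. Proteasome genes (25 tested, median -0.11) were led by Psmb2, Psmd8 and Psmc1 at -1.55, -0.59 and -0.72, of which Psmb2 was at -0.70 without siPou5f1 replicate 1. Splicing genes (31 tested, median -0.12) were led by Srsf3, Neat1 and Hnrnpa2b1 at -0.41, -2.30 and -0.91, of which Neat1 was at -1.14 without it. No gene of these 4 lists was called between the siRNAs in this fit or on genes with a mean of at least 100 CPM. DESeq2 called none either, but it gave an adjusted p to only 6, 5, 4 and 8 of their members. The medians without siPou5f1 replicate 1 were 0.04 for translation factors, which changed sign, -0.20 for nucleolar, -0.10 for proteasome and -0.17 for splicing genes.

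In the antioxidant list, which holds Ftl1, 27 genes were tested and Ftl1 was the 1 called, beside 0.332% of all genes tested. Gsto1 and Mt1, of glutathione transfer and metal binding, were at 0.53 and 0.69 (adjusted p 0.427 and 0.469), and the median was 0.15, or 0.34 without siPou5f1 replicate 1. In the chromatin list (median 0.08) Hmga2 was the 1 called of 26, beside the same 0.332%, and Ctcf (2.05) and Suz12 (1.08) did not pass. Nuclear-encoded respiratory genes (50 tested, median 0.05) included Atp5j, Cox6a1 and Atp5f1 at 0.77, -1.06 and -0.51. Sterol genes (13 tested) had a median of 0.13, with Msmo1 and Hsd17b7 at -0.62 and 1.08. Glycolysis genes (13 tested) had -0.11, with Aldoa, Pgk1 and Mif at -0.44, -0.33 and 0.80. Chaperones (20 tested) had 0.07, with Hsp90aa1, Pdia3 and Hspa8 at 0.22, 0.47 and 0.35. Immediate early and chemokine genes (8 tested) had 0.06, with Jun, Jund and Ccl7 at 1.35, -0.23 and 0.15. Interferon-stimulated genes (5 tested) had 0.15, with Ifitm2, Ifitm1 and Lgals3bp at 1.02, 0.50 and -0.47. Imprinted genes (13 tested) had 0.07, with H19, Igfbp4 and Igf2 at -0.61, 2.11 and 0.97. No gene of these lists other than Ftl1 and Hmga2 was called, in this fit or by DESeq2, which gave an adjusted p to 0 to 8 members of each. Without siPou5f1 replicate 1 the medians of glycolysis genes (0.11) and chromatin genes (-0.03) changed sign, and those of immediate early and chemokine genes and interferon-stimulated genes went to 0.53 and 0.58. The medians without it were 0.17 for respiratory, 0.01 for sterol, 0.04 for chaperone and 0.22 for imprinted genes. Among the 84 genes of lowest p over all lists, leaving that library out moved 25 log2 fold changes by over 1.5 times and turned the sign of 4 more.

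**Figure D5:**
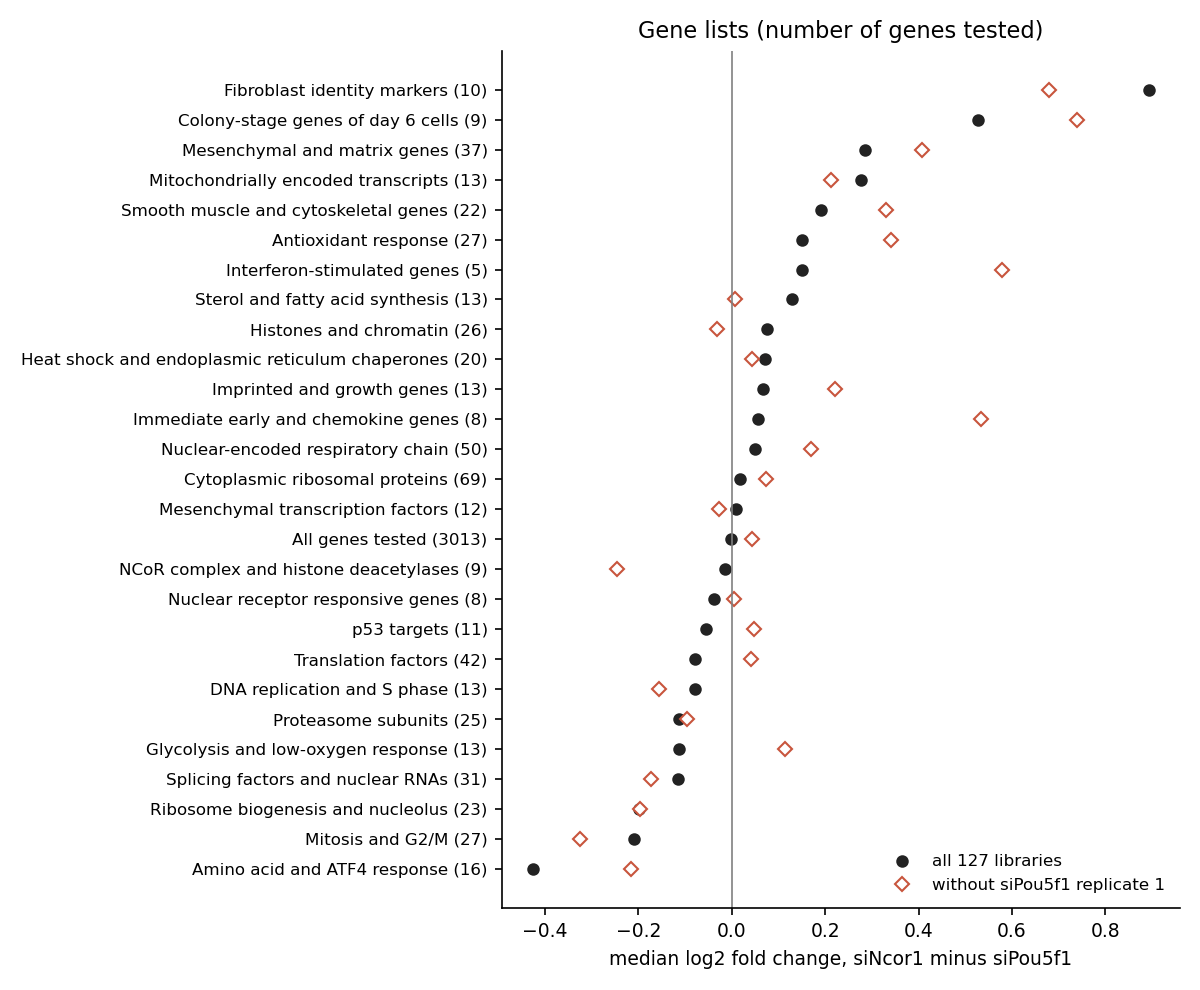
Median log2 fold change of siNcor1 minus siPou5f1 (x axis) over the tested members of each gene list with at least 5 of them (y axis, number tested in brackets), from the fit to 127 libraries (filled) and without siPou5f1 replicate 1 (open). Of these lists, fibroblast identity markers had the highest filled point at 0.89 and amino acid and ATF4 response genes the lowest at -0.43, while the extreme open points were those of colony-stage genes at 0.74 and mitosis genes at -0.32.

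The pair was then read along the untransfected time course. Of 3013 genes, 321 were called higher on Day06 than on Day00 in the same fit and 347 lower. Over the genes that went up, the median log2 fold change of siNcor1 over siPou5f1 was -0.02, with 150 (46.7%) above 0. Over the genes that went down it was 0.10, with 195 (56.2%) above 0, compared with 49.8% of all genes tested. Called genes were 5 of the 321 and 1 of the 347, beside 0.332% of all genes tested. Without siPou5f1 replicate 1, the called genes were 0 of 328 and 0 of 359, and the medians were 0.03 and 0.10.

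Each siRNA had more called genes against nt in this fit than there were within the pair, but by limma on the deposited log2 values the order turned for siNcor1, with 0 against nt and 4 within the pair (541 and 690 at an unadjusted p under 0.05). By edgeR, siNcor1 had 134 called genes against nt (4.45%), 103 higher and 31 lower, and siPou5f1 had 174 (5.77%), 108 higher and 66 lower. These comparisons share the nt libraries, so their values are given side by side only. Mrpl42, a protein of the mitochondrial ribosome, was at 387, 251 and 450.4 CPM in siNcor1, 450.2, 426 and 496 in siPou5f1 and 117, 89.7 and 147 in nt. It was higher than nt by 1.61 in siNcor1 (adjusted p 0.000279) and 1.90 in siPou5f1 (adjusted p 2.43e-06), and the direct difference was -0.30 ± 0.28 (adjusted p 0.835). E030024N20Rik was among the largest increases of both, at 2.67 and 2.49. Its summed counts were 22 in siNcor1, 17 in siPou5f1 and 4 in nt, so both values rest on the same few nt counts. Mbnl2, a splicing regulator, was lower in both, by -2.25 (adjusted p 0.00149) and -1.77 (adjusted p 0.012). Its summed counts were 8 in siNcor1, 10 in siPou5f1 and 49 in nt.

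Other large increases in siNcor1 over nt were those of Zfp106 (2.58), Gm4707 (1.83), Rps12-ps20 (1.74), Gng2 (1.73) and Gm45660 (1.68), where siPou5f1 was at 1.01, 1.41, 1.15, 1.33 and 0.99 and did not pass. Summed nt counts of these genes were 4, 9, 22, 13 and 17. The largest decreases besides Mbnl2 were those of the growth factor receptor gene Igf1r (-2.46), Gm44510 (-2.05), Mpp1 (-1.89), Bnip2 (-1.85) and Idi1 of isoprenoid synthesis (-1.71), with siPou5f1 at -1.36, -1.09, -0.57, -1.31 and -1.25, none of which passed. Summed siNcor1 counts of these genes were 3, 6, 7, 9 and 10, so in both directions the sizes rest on few counts. In siPou5f1, Rpl30-ps1 (1.83), Gm7658 (1.67), Abracl (1.62) and Rpl30-ps8 (1.55) rose the most after E030024N20Rik and Mrpl42, and siNcor1 was at 0.77, 1.12, 0.62 and 0.99, with Gm7658 called (adjusted p 0.0058).

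Decreases in siPou5f1 were largest for Flrt2 (-2.98), Ctcf (-2.64), Senp6 (-2.49), Evi5 (-2.40), Stt3b (-2.38) and Zfx (-2.29). Counts in the siPou5f1 libraries were 0, 1 and 0 for Flrt2, 1, 1 and 1 for Ctcf and 0, 0 and 4 for Senp6. For Evi5 they were 1, 0 and 3, for Stt3b 2, 1 and 0 and for Zfx 0, 1 and 4. The sizes of these decreases thus rest on few counts. siNcor1 was at -0.47, -0.59, -0.88, -1.13, -1.61 and -0.77 for these genes and passed for none. Ctcf, the insulator protein, was at 102, 62.8 and 70.1 CPM in siNcor1, 22.5, 23.7 and 11.3 in siPou5f1 and 99.9, 89.7 and 139 in nt. The pair did not overlap, yet the direct comparison did not pass for Ctcf (2.05 ± 0.82, adjusted p 0.427) or for any of these genes. A call against nt for one siRNA and not for the other does not show a difference between them.

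How alike the siRNAs were is given as a description, since it chose the pair. Among all 528 pairs of the 33 siRNAs, 73 had fewer called genes than the 10 of this pair and 5 had as many, with a median of 51 over the other pairs. siNcor1 had 13 to 1135 called genes against each of the 31 remaining siRNAs (median 181), and siPou5f1 had 52 to 1183 (median 234), so each had its smallest count against the other. With no control library shared, fold changes of siNcor1 over nt and of siPou5f1 over Mock, the transfection control, had a Pearson r of 0.168 across 3013 genes, which are not independent replicates. With the controls exchanged it was 0.231. In the first arrangement 29 genes were called in both, 21.6% of 134 and 20.7% of 140, 27 of them in the same direction. Of all 3013 genes tested, 134 (4.45%) were called in siNcor1 over nt and 140 in siPou5f1 over Mock. In the second 9 were, 37.5% of 24 and 5.17% of 174, all in the same direction. There, 24 of the 3013 were called in siNcor1 over Mock and 174 (5.77%) in siPou5f1 over nt.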

How the data were processed

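CEL-Seq2 libraries of 42 conditions were sequenced as 3 pools, 1 per replicate number, and the condition of a library was read from its column name. Per the methods and labels, reads were aligned by the authors to mm10 (GRCm38) using Bowtie2, assigned to GENCODE vM13 transcripts and collapsed by UMI in the CEL-Seq2 pipeline. The deposited counts are UMI-corrected, unnormalized counts per gene symbol. For the deposited log2 values (log2 CPM), the authors removed libraries of low quality, applied size factors and regressed out the batch, which leaves relative levels.

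The 127 of 129 libraries in both tables were used (29656 to 235292 counts each). The others had 7981 and 6403 counts, and 1 of them is a Mock column of replicate 3, told apart by its correlation with the log2 table (r 0.987 against 0.0253). edgeR 4.0.16 (R 4.3.3) quasi-likelihood tests used TMM scaling, filterByExpr by condition, and terms for condition and replicate, on 3013 genes (common dispersion 0.0158, 83 residual degrees of freedom). P-values were adjusted by Benjamini-Hochberg over all genes tested, with a threshold of 0.05. CPM are TMM-scaled and SE come from the test statistic. The script was tested on simulated data. The replicate block is the sequenced pool, which the labels give as a shared number. Deviations from the condition mean of same-numbered siNcor1 and siPou5f1 libraries correlated at -0.0224, 0.162 and 0.332. Libraries of different numbers correlated at -0.261 to 0.101, a range that holds the value of replicate 1. Replicates differed by more than sampling noise. Chi-square per gene was 3.39 to 5.68 in siPou5f1, 1.72 to 3.07 in siNcor1 and 1.58 to 2.42 in nt. A spread shared over all conditions may therefore understate that of siPou5f1.

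The members and gene lists were chosen with earlier results of these data known. Text names every called gene, those of next lowest p up to 24, up to 3 of lowest p per list (1 gene that this rule names is not reported here), and the 6 largest called changes in each direction against nt with at least 50 CPM and the same sign in every replicate. DESeq2 1.42.0 and limma 3.58.1 were alternatives. Positions and shared 30-base words come from GENCODE vM21, which held 23 of the 24 genes listed for the pair. siRNA strands come from the siRNA library table of the study, in which 2 per gene were read here.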

Additional observations from a re-analysis of the deposited data

How the results depend on the processing

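Genes differing between siNcor1 and siPou5f1 numbered 10, and 20 with a mean of at least 100 CPM (13 higher, 7 lower), 33 by DESeq2 (which gave 385 of the 3013 an adjusted p), 4 by limma on the deposited log2 values, 2 with no replicate block and 0 with the siNcor1, siPou5f1 and nt libraries alone (edgeR, 90 at an unadjusted p under 0.05). That fit tested 1252 genes. Leaving out a replicate gave 2 to 16, with 2 without replicate 1 and 16 without replicate 3. Leaving out siPou5f1 replicate 1, an alternative chosen after seeing the data, gave 3. Against nt, the 134 genes of siNcor1 became 39 with no filter on low counts, 30 with no replicate block, 24 with those libraries alone, 0 by limma (541 at an unadjusted p under 0.05) and 36 to 164 without single libraries or replicates. The 174 of siPou5f1 became 57, 60, 68, 19 and 80 to 127. The median over genes higher on Day06 went from -0.02 to between -0.106 and 0.0397, and that over genes lower on Day06 from 0.0996 to between 0.0592 and 0.195. The cause of these changes was not tested. Of the 10 called genes, Gm28439 kept its call under 10 of 11 alternatives, Gm14776 under 8, Gm17060, Gm5611 and Ftl1 under 7 and the others under 6, and Ftl1 lost it without replicate 2. Totals in the pair were 46611 to 134846, and whether depth sets the number of calls was not tested.

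Among the named genes, signs turned only for genes that did not pass the threshold. By limma, L1td1 was at -0.0572, Hspa8 at -0.00591 and Lyz2 at -0.0386. Trim28 was at 0.00199 and Perp at 0.0143 with no filter, Perp at 0.0239 with no replicate block, and Trim28 at 0.00116 in the 9 libraries alone. Leaving out single libraries or replicates moved L1td1 between -1.53 and 2.17, Trim28 between -0.338 and 0.376, Perp between -0.640 and 0.617, Sgk1 between -2.64 and 0.759, Fabp5 between -0.847 and 0.335, Hsd17b7 between -0.103 and 1.596, Aldoa between -0.904 and 0.0318, Nop58 between -0.893 and 0.0934, Psmd8 between -1.20 and 0.0413, Jund between -0.490 and 0.275, Ccl7 between -0.296 and 0.860, Ifitm1 between -0.133 and 2.15, Lgals3bp between -1.05 and 0.339 and Stmn2 between -1.11 and 0.0351. Over 126 named values and 1203 alternative values, 1001 kept sign and side of the threshold, 144 lost the call, 33 gained it and 25 changed sign.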
